A study of Mus musculus with 6 samples.

Results

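Oligodendrocyte precursor cells (OPCs) were examined by single-nucleus RNA sequencing of frozen, dissected striatum from mice. OPC nuclei were chosen by a rule on 11 genes: the deposited values of Pdgfra and Cspg4 summed to at least 3 in a nucleus, Vcan was at least 1, and Gpr17 plus Bmp4, Dcn plus Col1a2, Mog plus Mag and Rgs9 plus Pde10a stayed at or under 1, 2, 1 and 5. The rule found 336 OPC nuclei among 48834 nuclei, a share of 0.688%. The 6 libraries came from 3 wild-type replicates and 3 replicates heterozygous for Celsr3, the gene of a large cadherin of the planar cell polarity family, and each was labelled as a biological replicate. The labels used here name no other allele, no treatment, and no sex, age or strain. They also do not say how the Celsr3 allele was made or in which cells it acts. Values are depth-corrected UMI values per nucleus that were rounded to whole numbers, so the sequencing depth of each nucleus is unknown, and each level below is the mean value per nucleus of a library. Spread between libraries is given as the SD.

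OPCs are the glial cells that divide in the adult brain and give rise to myelinating oligodendrocytes. They carry the receptor for platelet-derived growth factor AA, PDGFRA, and the proteoglycans NG2 (the product of Cspg4) and versican (Vcan), and they receive synaptic input from neurons. On the way to an oligodendrocyte they pass through a committed precursor stage marked by Gpr17 and Bmp4, lose Pdgfra and Cspg4, and then switch on the myelin genes. On the GRCm38 mouse genome, Pdgfra lies on chromosome 5 (75152292 to 75198215, plus strand), Cspg4 on chromosome 9 (56865033 to 56899870, plus strand), Vcan on chromosome 13 (89655312 to 89742509, minus strand) and Celsr3 on chromosome 9 (108826320 to 108852969, plus strand).

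Heterozygous replicate 1 stood apart before any comparison was made. It gave 10 OPC nuclei, against 51, 74 and 44 in wild-type replicates 1 to 3 and 47 and 110 in heterozygous replicates 2 and 3. In these nuclei the median number of genes with a value above 0 was 3965, while the other libraries lay between 1996 and 2364.5. The mean of these medians was 2114 ± 189 in wild type and 2837 ± 981 in heterozygotes (SD, n = 3 each; exact permutation p = 0.2), and 2273 ± 129 in heterozygotes without that library (exact permutation p = 0.3). Over 3000 genes were found in 7 of the 10 nuclei (70.0%), against 5.88% to 14.9% of the OPC nuclei in the other libraries. The summed level of 5 genes active in most neurons (Meg3, Syt1, Snhg11, Rbfox3 and Snap25, chosen after the data were seen) was 55.6 per nucleus there and 13.5 to 24.2 elsewhere. None of these genes was at 0. In 7 of its 10 nuclei that sum exceeded 50, as it did in 13 of the 326 other OPC nuclei. The summed level of 9 glutamatergic neuron genes was 10.7 in heterozygous replicate 1 and 2.15 to 3.23 elsewhere, and that of 15 medium spiny neuron genes was 18.1 there and 16.9 to 19.8 elsewhere. The level of the medium spiny neuron list was limited beforehand, because the rule caps Rgs9 plus Pde10a. Without that cap heterozygous replicate 1 would have kept 22 nuclei. The summed level of 22 OPC identity genes outside the rule was 94.3 in heterozygous replicate 1, and 144 to 185 in the other libraries. The profile of heterozygous replicate 1 correlated with those of the other libraries at 0.695 to 0.775, across genes, which are not independent replicates. For each other library the highest such correlation was 0.928 to 0.956. A mean over 10 nuclei varies more than a mean over 44 to 110, and the part of this was not tested. The part of these values in the results was not tested, and genotype comparisons below are given with and without that library. Levels across cell classes are given without it, except that list sums in the other classes are means over all 6 libraries.

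**Figure D1:**
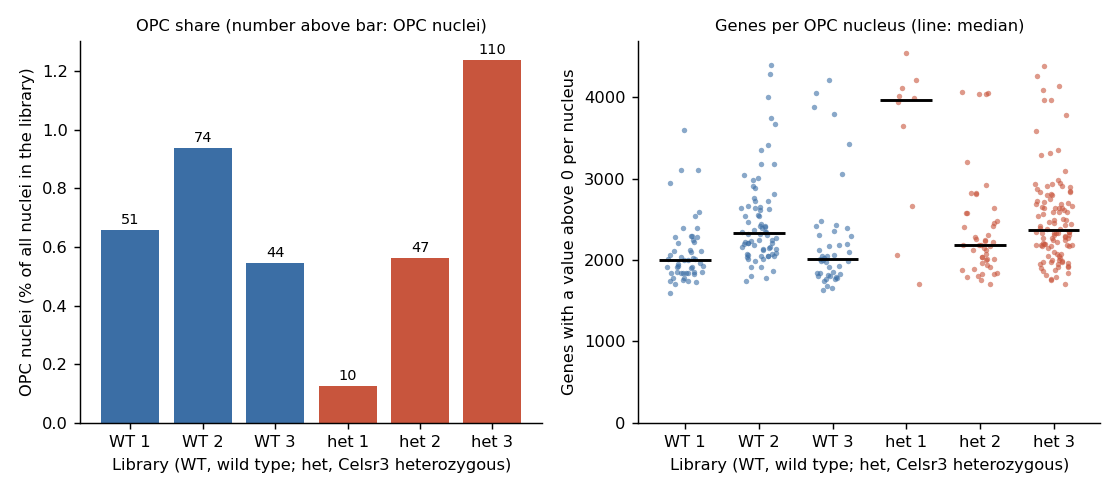
OPC nuclei as a percentage of all nuclei in each of the 6 libraries (left, counts above the bars) and the number of genes with a value above 0 in each OPC nucleus (right, one point per nucleus, line at the median). Heterozygous replicate 1 has 10 nuclei and a median of 3965 genes, above the medians of the other 5 libraries.

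**Figure D2:**
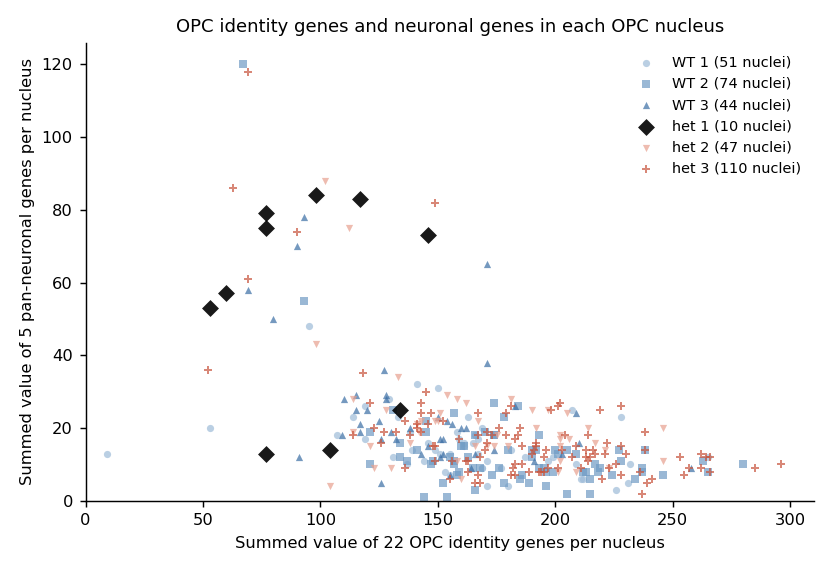
Summed value of 5 pan-neuronal genes against the summed value of 22 OPC identity genes in each of the 336 OPC nuclei, with one marker shape per library. Of the 10 nuclei of heterozygous replicate 1 (black diamonds), 7 lie above a neuronal sum of 50, as do 13 of the other 326.

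The label was checked against OPC genes that the rule did not use. Just outside the rule, 20 nuclei had a Pdgfra plus Cspg4 sum of 2 and met the other criteria, and 46 nuclei just inside had a sum of 3. Lhfpl3, a membrane protein gene typical of OPCs, averaged 33.2 just outside and 35 just inside. Ptprz1, which encodes a receptor phosphatase and proteoglycan, averaged 13.5 and 15.0 in these nuclei. At a sum of 0 the other criteria left 1212 nuclei, in which Lhfpl3 averaged 2.43 and the astrocyte glutamate transporter gene Slc1a2 averaged 22.2. The limit at 3 therefore leaves out some nuclei that resemble the chosen ones. Without the limit on Rgs9 plus Pde10a, which are medium spiny neuron genes, the rule would have kept 525 nuclei. The limit on the fibroblast genes Dcn and Col1a2 removed no nucleus. The summed level of 11 endothelial genes was 0.0784 to 0.213 in the 5 other libraries and 0.7 in heterozygous replicate 1, against 0.372 in mature oligodendrocytes and 1.01 in astrocytes. That of 12 microglial genes was 1.00 to 2.61 over all 6, against 2.05 and 2.28 in those classes. The 12 genes of the astrocyte list summed to 6.90 in heterozygous replicate 1 and 11.1 to 14.8 elsewhere, against 102 in astrocyte nuclei. Ttr, a transcript of the choroid plexus, varied between libraries, from 0 in heterozygous replicates 1 and 2 to 4.47 in wild-type replicate 2. Of the fibroblast and the mural cell lists, 1 gene each was at 0, and Pdgfra and Cspg4 themselves belong to these lists. Among the 336 nuclei, 3 carried a cell barcode that also occurred in another library, and no barcode was shared between OPC nuclei.

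OPC nuclei made up 0.659% (51 of 7735; 95% exact binomial interval 0.491% to 0.866%), 0.938% (74 of 7890; 0.737% to 1.18%) and 0.544% (44 of 8081; 0.396% to 0.730%) of the wild-type libraries. In the heterozygous libraries the shares were 0.127% (10 of 7890; 0.0608% to 0.233%), 0.562% (47 of 8363; 0.413% to 0.747%) and 1.24% (110 of 8875; 1.02% to 1.49%). These intervals cover counting error only. The lowest and the highest share were both heterozygous, and the groups overlapped. The group means were 0.714% ± 0.202 (SD, n = 3) and 0.643% ± 0.561 (SD, n = 3), with p = 0.9 by a two-sided exact permutation test, for which 3 against 3 libraries cannot give less than 0.1. Without heterozygous replicate 1 the heterozygous mean was 0.901% ± 0.479, with an exact permutation p of 0.6. Shares of captured nuclei also depend on which nuclei survived extraction, and that was not tested.

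Within the oligodendrocyte lineage, the 336 OPC nuclei stood beside 282 committed precursor nuclei (Gpr17 plus Bmp4 of at least 3) and 7543 mature oligodendrocyte nuclei (Mog plus Mag of at least 3). The committed precursor rule sets no limit on Pdgfra, so it includes early members. OPCs were 3.07%, 5.52% and 3.08% of the lineage in wild type and 1.24%, 4.0% and 6.28% in heterozygotes. The groups overlapped, with means of 3.89% ± 1.41 and 3.84% ± 2.52 (SD, n = 3 each; exact permutation p = 1.0). Without heterozygous replicate 1 the heterozygous mean was 5.14% ± 1.61, with an exact permutation p of 0.5.

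The OPC profile was set beside committed precursors, mature oligodendrocytes and 2896 astrocyte nuclei (Aqp4 plus Gja1 of at least 3). Because nuclei were assigned by their values, these levels are a description, with no test. Levels here are means ± SD over the 5 libraries other than heterozygous replicate 1. Of 7805 genes measured, OPCs were above the other 3 classes in 22.5% and over 2-fold above all of them in 0.871% (68 genes). With heterozygous replicate 1 included, these shares were 30.7% and 2.28% (182 genes), and of the lists below 23 of 29 ion channel genes, 16 of 32 transmitter receptor genes and 4 of 20 growth factor receptor genes were above all 3 classes.

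Among the genes of the rule, Pdgfra averaged 4.63, 5.57 and 4.95 in wild type and, in heterozygotes, 2.6, 4.32 and 5.12. Its level was 4.92 ± 0.476 in OPCs, 1.97 ± 0.674 in committed precursors, 0.0213 ± 0.00443 in mature oligodendrocytes and 0.0187 ± 0.00482 in astrocytes. Cspg4 was at 2.12 ± 0.325 in OPCs and 1.03 ± 0.328 in committed precursors. Vcan was at like levels in these stages, 5.59 ± 0.805 and 5.78 ± 0.723.

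The OPC identity list of 25 genes, which holds these 3 genes, had 24 members above mature oligodendrocytes, with a median ratio of 28.3. Over all measured genes 57.0% were above mature oligodendrocytes, with a median ratio of 1.07. Against committed precursors 15 of the 25 were higher (45.5% over all genes). Lhfpl3 averaged 38.0, 40.9 and 31.4 in wild type and 15.4, 36.0 and 44.7 in heterozygotes, and heterozygous replicate 1 was the lowest. Its level of 38.2 ± 5.03 in OPCs compared with 21.5 ± 3.27 in committed precursors and 0.595 ± 0.103 in mature oligodendrocytes. Pcdh15, a protocadherin gene, was at 18.9 ± 2.57, 11.6 ± 2.31 and 1.64 ± 0.299 in the same order. Some identity genes were higher in committed precursors in each of the 5 libraries. Tnr, which encodes the matrix protein tenascin-R, was at 21.0 ± 2.07 in OPCs and 46.0 ± 3.68 in committed precursors. Sox6, a transcription factor gene that restrains differentiation, was at 9.51 ± 1.10 and 14.0 ± 1.15. The lineage factor Sox10 was at 1.28 ± 0.302 in OPCs, 1.72 ± 0.0589 in committed precursors and 1.14 ± 0.117 in mature oligodendrocytes, close together beside its 0.0251 ± 0.00568 in astrocytes.

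Of 26 genes measured for the extracellular matrix and its proteoglycans, 25 were above mature oligodendrocytes (57.0% over all genes), with a median ratio of 11.8. This list holds Cspg4 and Vcan of the rule, whose levels follow from the selection. Xylt1, which starts the sugar chains of proteoglycans, was at 12.7 ± 1.69 in OPCs, 8.23 ± 2.15 in committed precursors and 0.146 ± 0.0211 in mature oligodendrocytes. Chst11, a chondroitin sulfotransferase gene, was at 3.46 ± 0.623, 1.99 ± 0.418 and 0.1 ± 0.0116. Mmp16, a membrane-bound metalloproteinase gene, was at 8.68 ± 0.772, 4.47 ± 0.870 and 0.576 ± 0.143. OPCs shared some of this set with astrocytes: Ptprz1 was at 17.1 ± 1.71 in OPCs and 10.4 ± 0.634 in astrocytes, and the glypican gene Gpc5 at 24.0 ± 4.97 and 50.7 ± 4.01.

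Commitment genes were lower in OPCs. Of 19 measured, 1 was above committed precursors (background 45.5% of genes), and the median ratio was 0.236. Fyn, a kinase gene of the myelination programme, was at 1.66 ± 0.174 in OPCs and 14.1 ± 2.56 in committed precursors. Bcas1, a marker of early myelinating cells, was at 2.64 ± 0.168 and 16.7 ± 1.94. Enpp6, a marker of newly formed oligodendrocytes, was at 0.0221 ± 0.0142 and 2.46 ± 0.606. Frmd4a was at 2.29 ± 0.410 and 14.0 ± 10.7, with a wide spread between the committed precursor libraries. Neu4, a sialidase gene, was already present in OPCs, at 0.833 ± 0.187 against 1.39 ± 0.378, and was at 0.01 ± 0.00323 in mature oligodendrocytes. Of 19 myelin genes, 0 were above mature oligodendrocytes (57.0% over all genes), with a median ratio of 0.0738. Mature oligodendrocytes were assigned by Mog and Mag and committed precursors by Gpr17 and Bmp4, so the levels of these genes follow from the rules. Mbp, for myelin basic protein, was at 7.31 ± 1.38 in OPCs, 7.86 ± 1.74 in astrocytes and 33.2 ± 4.26 in mature oligodendrocytes. Its OPC level did not exceed that in astrocytes. St18, a transcription factor gene of the later lineage, was at 0.105 ± 0.0301 in OPCs, 5.83 ± 1.08 in committed precursors and 18.7 ± 1.61 in mature oligodendrocytes.

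**Figure D3:**
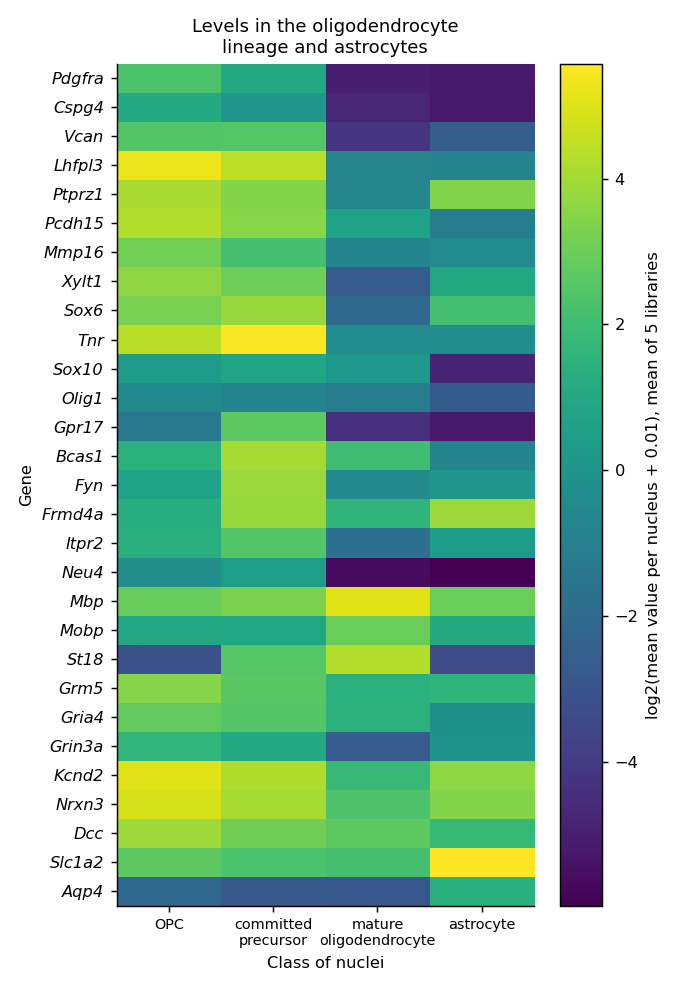
Levels of 29 genes in OPCs, committed precursors, mature oligodendrocytes and astrocytes, as log2 of the mean value per nucleus plus 0.01, averaged over the 5 libraries other than heterozygous replicate 1. Pdgfra and Cspg4 are brightest in OPCs, Gpr17, Bcas1 and Fyn in committed precursors, and Mbp and St18 in mature oligodendrocytes; several of these genes were used to assign the nuclei.

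Channels, transmitter receptors and synaptic adhesion proteins let OPCs receive signals from neurons. Of 29 measured ion channel genes, 20 were above all 3 other classes (background 22.5%), as were 3 of the 5 pan-neuronal genes. The summed level of the ion channel list was 84.7 to 96.9 in OPCs of the 5 libraries, 61.1 in committed precursors, 35.2 in mature oligodendrocytes and 42.3 in astrocytes, and it was 127 in the nuclei outside these 4 classes. The sums outside OPCs are means over all 6 libraries. The part of neuronal RNA in these values was not tested. Kcnd2, for an A-type potassium channel, averaged 36.6, 29.6 and 32.0 in wild type and 20.4, 37.3 and 32.7 in heterozygotes. Its level of 33.6 ± 3.26 compared with 18.3 ± 2.60 in committed precursors, 3.47 ± 0.626 in mature oligodendrocytes and 12.2 ± 3.30 in astrocytes. Of 32 glutamate and GABA receptor genes, 12 were above all 3 classes and 24 above mature oligodendrocytes (22.5% and 57.0% over all genes). Grm5, the metabotropic glutamate receptor 5 gene, was at 11 ± 0.812 in OPCs, 6.10 ± 0.675 in committed precursors and 2.66 ± 0.380 in mature oligodendrocytes. The AMPA receptor gene Gria4 was at 6.91 ± 1.41, 5.55 ± 0.517 and 2.68 ± 0.656. Grin3a, for an NMDA receptor subunit, was at 3.06 ± 0.311, 2.08 ± 0.493 and 0.146 ± 0.0273. Cacng4, whose product accompanies AMPA receptors, was at 3.27 ± 0.651, 2.09 ± 0.740 and 0.0962 ± 0.0139.

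Synaptic adhesion genes were above mature oligodendrocytes in 25 of 31 cases (57.0% over all genes), with a median ratio of 3.28. Against committed precursors this was 17 of 31 (45.5% over all genes), with a median ratio of 1.11, and 11 of 31 were above all 3 classes (22.5% over all genes). The summed level of the list was 482 to 510 in OPCs of the 5 libraries, 471 in committed precursors, 432 in astrocytes and 178 in mature oligodendrocytes. The sums outside OPCs are means over all 6 libraries. Lrrc4c, for a netrin-G ligand, was at 56.4 ± 3.63 in OPCs, 37.9 ± 7.07 in committed precursors and 8.73 ± 1.59 in mature oligodendrocytes. Opcml went the other way between the early stages, at 34.8 ± 2.98 and 65.2 ± 2.74. Nxph1, a neurexin ligand gene that stood in the interneuron list, was at 15.4 ± 3.53 in OPCs, 10.9 ± 2.91 in committed precursors and 0.235 ± 0.0684 in mature oligodendrocytes. Among axon guidance genes, ligands and receptors together, 20 of 27 were above mature oligodendrocytes, 15 above committed precursors, 16 above astrocytes and 8 above all 3 classes. Over all genes the shares were 57.0% above mature oligodendrocytes, 45.5% above committed precursors and 22.5% above all 3 classes. No such share was computed against astrocytes. Dcc, the netrin receptor gene, was at 14.9 ± 1.42 in OPCs against 8.31 ± 1.14 in committed precursors.

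Growth factor receptors were mixed, with 6 of 20 above all 3 classes. This list holds Pdgfra of the rule, whose level follows from the selection. For each list of this paragraph, the share over all genes was 22.5% above all 3 classes and 57.0% above mature oligodendrocytes. Ntrk3, the neurotrophin-3 receptor gene, was at 4.88 ± 0.603 in OPCs and 3.21 ± 0.180 in committed precursors. Erbb4, a neuregulin receptor gene, was at like levels along the lineage, 17.1 ± 1.70, 16.9 ± 3.53 and 16.3 ± 2.84. Of 10 measured Notch pathway and Id genes, 7 were above mature oligodendrocytes, 3 above astrocytes and 2 above all 3 classes. Hes5, a Notch target, was at 0.397 ± 0.108 in OPCs, 0.207 ± 0.0795 in committed precursors, 0.0657 ± 0.00514 in mature oligodendrocytes and 0.754 ± 0.169 in astrocytes. Of 16 nuclear receptor and hormone genes, 2 were above all 3 classes, and the thyroid hormone receptor gene Thrb, not one of these, was at 1.62 ± 0.286 in OPCs, 0.450 ± 0.0827 in mature oligodendrocytes and 2.48 ± 0.303 in astrocytes. The Wnt list had 2 of 13 above all 3 classes, and the dopamine signalling list 2 of 10.

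Genes with an OPC mean of at least 0.5 in the libraries used were ranked by the ratio of OPCs to the next class. The 20 genes with the highest ratio changed with heterozygous replicate 1. Over 6 libraries, 16 of the 20 had a value in that library over 2-fold above every other library. Of all 20, 5 were also among the 20 chosen without it. Without it the list was led by Il1rapl2 (ratio 3.22), Mmp15 (3.07), Chl1 (2.82), Kcnh5 (2.72), Usp29 (2.61) and Alk (2.59), and Pdgfra itself had a ratio of 2.49. In nuclei outside the 4 classes 5 of these 20 were higher than in OPCs: Il1rapl2 (2.89 against 0.790), Usp29 (2.32 against 1.10), Fam135b, Hecw1 and Fstl5. Il1rapl2 varied between libraries, at 0.0196, 0.0676 and 2.64 in wild type and 6.8, 1.04 and 0.182 in heterozygotes. It was above the other classes in 2 of the 5 libraries, and the other 19 genes were above them in 5 of 5. The 20 genes were chosen by their ratio over these same 5 libraries, so this count largely follows from the selection. Mmp15, a membrane-type metalloproteinase gene, averaged 0.333, 0.878 and 1.43 in wild type and 0.5, 0.426 and 0.818 in heterozygotes. Chl1, a cell adhesion gene of the L1 family, averaged 2.18, 3.42 and 2.16, and 1.7, 2.32 and 2.13. Alk, a receptor tyrosine kinase gene, averaged 0.686, 1.03 and 1.32, and 0.9, 1.11 and 1.67.

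In a small set of OPC nuclei many cell cycle genes were found together. Of 29 genes of S, G2 and M phase, at least 10 were above 0 in 11 of 336 nuclei (3.27%; 95% exact binomial interval 1.65% to 5.78%), no nucleus had 6 to 9, and the highest number was 20. The limit of 10 was chosen after the distribution was seen. The libraries contributed 2, 1 and 3 such nuclei in wild type and 0, 2 and 3 in heterozygotes. The 0 of 10 in heterozygous replicate 1 allows a share of up to 30% when 3 counts are taken as the limit, and leaving that library out gave 11 of 326 (3.37%). In committed precursors 1 of 282 nuclei (0.355%; 0.00898% to 1.96%) reached 10 genes, in mature oligodendrocytes 6 of 7543 (0.0795%; 0.0292% to 0.173%) and in astrocytes 4 of 2896 (0.138%; 0.0376% to 0.353%). These intervals pool nuclei over libraries, cover counting error only, and compare no conditions.

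The 29 genes chose these 11 nuclei, so their levels there are a description. The 11 nuclei held 40.2% of the summed value of the 29 genes in OPCs, and over 50% for 21 of them. For the other genes the share was lower, down to 12.4% for the DNA polymerase gene Pola1, 5.70% for the kinase gene Cit and 0.00% for Pcna. In these nuclei Top2a, for the topoisomerase of mitotic chromosomes, averaged 5.09, against 0.0431 in the other 325. The proliferation marker Mki67 averaged 1.91 against 0.0308. OPC genes outside the rule were present in both: Lhfpl3 averaged 42.6 in the 11 nuclei and 38.9 in the others, and Ptprz1 16 and 17.0. Sox6 was higher in the 11 nuclei, at 13.7 and 9.52, and Sox10 lower, at 0.636 and 1.33 (above 0 in 5 of 11 and 205 of 325). These differences were not tested. Bcas1 averaged 1.55 in the 11 nuclei and 2.64 in the others, and Fyn averaged 1.64 in both. The median number of genes was 2308 in these nuclei and 2232 in the others. The depth of each nucleus is unknown, and its part was not tested.

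Between genotypes, the planned measure was the share of OPC nuclei with at least 3 of the 29 cell cycle genes. It was 13.7%, 13.5% and 13.6% in wild type and 20%, 12.8% and 20% in heterozygotes, with overlapping groups and an exact permutation p of 0.4. Without heterozygous replicate 1 the exact permutation p was 0.4 as well. At this low limit 7.93% of mature oligodendrocyte nuclei also counted, against 15.8% of OPC nuclei. With a limit of 5 genes the difference turned, from 3.96 percentage points higher in heterozygotes to 4.26 lower (exact permutation p = 0.2), and 2.95 lower without heterozygous replicate 1 (exact permutation p = 0.3). With a limit of 2 genes it was 11.3 points higher (exact permutation p = 0.1), and 6.76 higher without heterozygous replicate 1 (exact permutation p = 0.2). In nuclei with at most 3000 genes it was 11.5 points higher, where the 33.3% of heterozygous replicate 1 was 1 of 3 nuclei. Without that library it was 5.66 points higher, and the exact permutation p was 0.1 both times, the smallest either design allows.

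**Figure D4:**
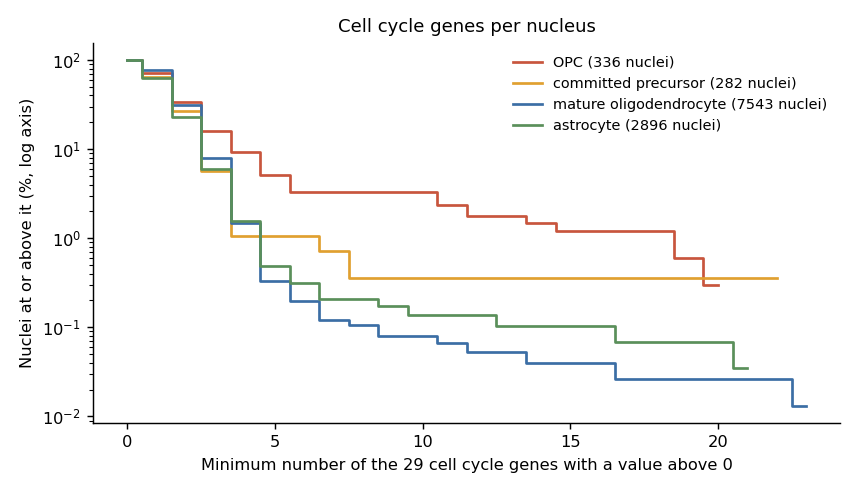
Percentage of nuclei (log axis) with at least a given number of the 29 cell cycle genes above 0, for OPCs, committed precursors, mature oligodendrocytes and astrocytes. The OPC line stays at 3.27% from 6 to 10 genes, above the other 3 classes.

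OPC nuclei were also compared among themselves, by the variance over mean of each gene within a library, relative to genes of like mean (8244 genes). Malat1, a long non-coding RNA of the nucleus, ranked first, but with a mean of 466 per nucleus against 86.9 for Lsamp, the next gene by mean, it has no genes of like mean and its ratio is not given. For Lsamp and Lrrc4c too, the reference rests on genes of mostly lower mean. Next by mean rank were Lsamp, Gm15398, Kctd8, Rorb, Car10, Wdr17, 4930555F03Rik, Egfr and Lrrc4c, with median ratios of 2.09 to 3.55. For Gm15398, a value above 0 was found in 140 of the 336 nuclei (41.7%). Egfr, the epidermal growth factor receptor gene, was above 0 in 21 nuclei, none of them among the 11 cell cycle nuclei. Over 3000 genes were found in 12 of these 21, and nuclei with that many genes held 76.6% of the Egfr value. Slc1a2 averaged 13.3 in them and 5.68 in the rest, and Lhfpl3 36.4 and 39.2. Rorb and Car10 also had much of their value in the 44 nuclei with over 3000 genes (38.8% and 50.8%), whereas Lrrc4c did not (6.61%). Ranked without heterozygous replicate 1, 5 of the 10 remained (Malat1, 4930555F03Rik, Wdr17, Lsamp and Gm15398), and Gpc5, Chst9, Aldh1a1, Rmst and Pcdh9 took the place of the others. The part of gene-rich nuclei in this variation was not tested.

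Celsr3, the targeted gene, was too low in OPCs to be tested. It averaged 0, 0.0270 and 0.0227 in the wild-type OPC nuclei and 0.1, 0.0426 and 0.0182 in the heterozygous ones, from 8 nuclei above 0 in all. Over all nuclei of the libraries it averaged 0.0747, 0.1 and 0.108 in wild type and 0.0617, 0.0692 and 0.0643 in heterozygotes, and those groups did not overlap. Its relative Celsr2 averaged 0.255, 0.189 and 0.273 in wild-type OPCs and 0.5, 0.213 and 0.109 in heterozygous ones, with overlapping groups. Over all nuclei Celsr2 averaged 0.211, 0.196 and 0.199 in wild type and 0.253, 0.228 and 0.232 in heterozygotes, again without overlap. The share of all genes without overlap over all nuclei was not computed, so neither separation is read as a result. Means over all nuclei also depend on the mix of cell classes. Mature oligodendrocytes were 784 of 7890 nuclei in heterozygous replicate 1 and 1582 of 7735 in wild-type replicate 1. The part of this mix was not tested. Celsr1 was above 0 in 1 OPC nucleus.

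Among the genes that met the filter on low values, none passed the test between genotypes in OPC nuclei. Of 2129 genes tested with limma, 0 (0.00%) passed a Benjamini-Hochberg adjusted p under 0.05, and the smallest adjusted p was 0.932. Without the filter, 6 of 18777 genes passed (0.032%), with a smallest limma adjusted p of 0.00315. Among them 4930445B16Rik, Ntng1, Rps23 and Ttr had also met the filter. With it, their unadjusted limma p was 0.0190, 0.0207, 0.0966 and 0.0920, and their adjusted p 0.932. For Ttr the difference was -3.99 in both fits, with a standard error of 2.12 with the filter and 0.78 without. Of the 6 genes, Ntng1, Olfm3 and Zfp804b were higher in heterozygotes, with their highest value in heterozygous replicate 1 (5.2, 4.8 and 2.8). The other 3 were lower in heterozygotes: 4930445B16Rik had its lowest value, 1.2, in that library, Rps23 was at 0 in it, and Ttr at 0 in it and in heterozygous replicate 2. At an unadjusted p under 0.05 stood 62 genes (2.91%), 30 higher (1.41%) and 32 lower (1.50%) in heterozygotes. With each nucleus scaled to the same total, 23 were higher and 41 lower of 64. Groups did not overlap for 202 genes (9.49%). Without heterozygous replicate 1, 0 of 2451 genes passed, with 96 at an unadjusted p under 0.05 (3.92%) and 402 of 2128 without overlap (18.9%). With fewer libraries, groups fail to overlap more often by chance, so the shares of 9.49% and 18.9% cannot be set against each other. The replicates are labelled biological, but nothing used here says that each was a separate animal.

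The genes named next are those of smallest unadjusted p whose groups did not overlap, 10 in each direction, and none passed: all have a limma adjusted p of 0.932. Log2 differences are heterozygous minus wild type on the scale of log2(value + 0.01), with standard errors. Esrrg, an orphan nuclear receptor gene, averaged 0.373, 0.676 and 0.386 in wild type and 1.4, 1.06 and 0.836 in heterozygotes, a difference of 1.21 ± 0.32 (1.02 ± 0.33 without heterozygous replicate 1). Gatad2b, for a subunit of the NuRD chromatin complex, averaged 0.784, 0.743 and 0.659 against 1.8, 1.30 and 1.11, a difference of 0.91 ± 0.25 (0.72 ± 0.24). Ptch1, the Hedgehog receptor gene, averaged 0.510, 0.459 and 0.432 against 0.8, 1.04 and 0.691, a difference of 0.82 ± 0.28 (0.85 ± 0.30). The other 7 were Galnt17, Kcnh5, Dlc1, Atf7ip, Susd4, Fbxl7 and Pde1a, with differences of 0.72 to 1.40, and of 0.69 to 0.78 without heterozygous replicate 1. For Pde1a the value depended on 1 library, at 0.451, 0.689 and 0.955 against 4.2, 1.04 and 1.28, with 1.40 ± 0.50 over all libraries and 0.78 ± 0.31 without heterozygous replicate 1. Kcnh5 turned from 0.84 to -1.49 when nuclei with over 3000 genes were left out, which leaves 3 nuclei in heterozygous replicate 1, where it was then at 0. It was at 0.625, 0.540 and 0.842 in wild type and 1.36 and 0.969 in the other heterozygous libraries. For Susd4 the difference was 0.87 over all nuclei and 0.34 in these.

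Among the lower genes, Ctnna3, for an alpha-catenin of cell junctions, averaged 15.5, 11.2 and 13.6 in wild type and 6.9, 9.66 and 8.81 in heterozygotes. Its difference was -0.67 ± 0.22, and -0.53 ± 0.15 without heterozygous replicate 1. The predicted transcript Gm26936 averaged 1.51, 1.34 and 1.11 against 0.4, 0.553 and 0.782, a difference of -1.22 ± 0.29 (-0.98 ± 0.25). Drg1, a GTPase gene, averaged 1.51, 1.30 and 1.59 against 1, 0.787 and 1.04, a difference of -0.64 ± 0.22 (-0.69 ± 0.23). The remaining 7 were Gm11149, Gm36146, 4932443L11Rik, E130114P18Rik, 4930517O19Rik, 5330438D12Rik and Lysmd4, at -0.57 to -1.21, and at -0.53 to -1.01 without heterozygous replicate 1. Among them 4932443L11Rik moved from -1.13 to -0.73. In nuclei with at most 3000 genes the difference of Gm26936 was -3.02, with heterozygous replicate 1 at 0 in its 3 nuclei, and that of Drg1 was -0.25.

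**Figure D5:**
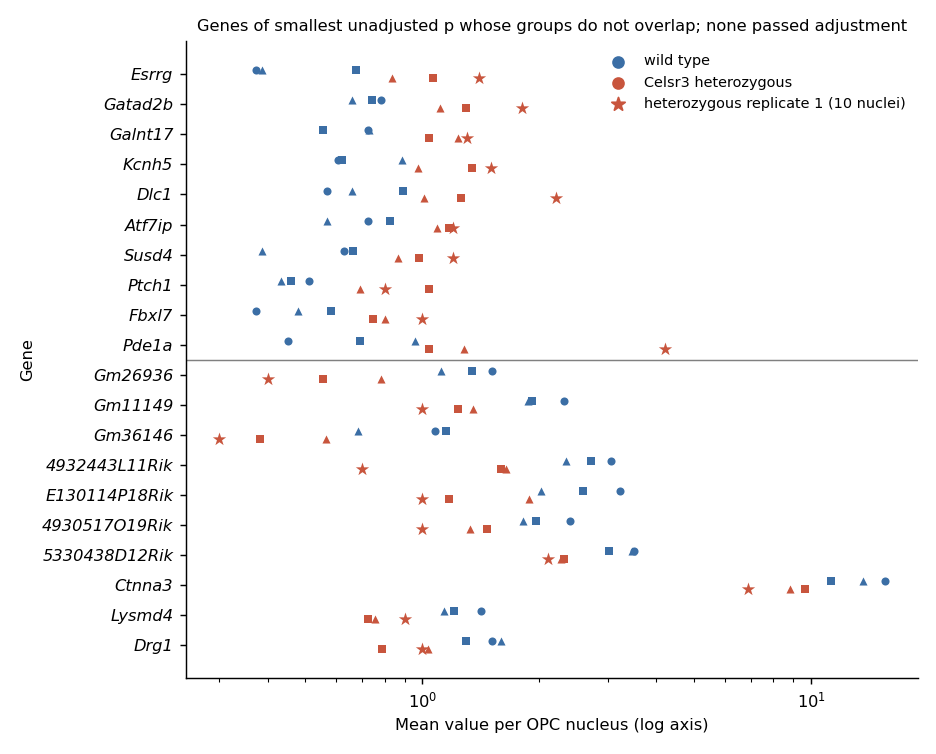
Mean value per OPC nucleus (log axis) in each of the 6 libraries for the 20 genes of smallest unadjusted p whose groups do not overlap, 10 higher in heterozygotes above the line and 10 lower below it. Circles, squares and triangles are replicates 1, 2 and 3, heterozygous replicate 1 is a star, and no gene passed adjustment (limma adjusted p 0.932).

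Of 187 distinct list genes tested, 5 (2.67%) had an unadjusted p under 0.05, a share near the 2.91% of all genes. Sema5a, a semaphorin gene, averaged 1.18, 1.04 and 0.977 in wild type and 1.3, 1.94 and 1.77 in heterozygotes, a difference of 0.63 ± 0.23 (0.80 ± 0.22 without heterozygous replicate 1; limma adjusted p of 0.932 and 0.999), and 0.21 with the stricter OPC rule, which leaves 2 nuclei in that library. The receptor genes Grin1 (0.86), Grm8 (1.29) and Gabbr2 (1.15) each had their highest value in heterozygous replicate 1, at 2.1, 2.3 and 2.9. Without it their differences were 0.43, 0.75 and 0.60, with unadjusted limma p of 0.154, 0.123 and 0.12. Slc1a2 was lower, at 7.55, 6.70 and 6.98 against 3.4, 6.17 and 5.06, a difference of -0.58 ± 0.25 (-0.34 ± 0.15 without heterozygous replicate 1). Without that library 5 of 206 list genes (2.43%, against 3.92% of all genes) had an unadjusted p under 0.05, Sema5a, Slc1a2 and 3 others, all with a limma adjusted p of 0.999. Tcf7l2, a transcription factor gene of Wnt signalling and of the commitment list, averaged 0.392, 0.703 and 0.364 in wild type and 0.3, 1.43 and 0.845 in heterozygotes. Its difference was 0.61 ± 0.54 over all libraries and 1.22 ± 0.34 without heterozygous replicate 1. Pcdh15 stood at 0.11 and 0.31, and the adhesion receptor gene Adgrl3 at -0.04 and 0.26, in the same order.

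The median difference of the OPC identity list between genotypes changed sign without heterozygous replicate 1. Of 21 tested identity genes 19 were lower in heterozygotes, with a median difference of -0.20 on the log2 scale, against 0.00 over all genes tested, of which 49.6% were lower. These 19 include Pdgfra (-0.38), Cspg4 (-0.03) and Vcan (-0.32), which the rule used, so their values were limited by the selection. Without heterozygous replicate 1 the median was 0.11, against 0.04 over all genes tested in that fit. Matrix genes, with Cspg4 and Vcan among them, had a median of -0.20 over 18 tested genes, and 0.14 without it. The 7 tested myelin genes had a median of -0.47, all lower, and -0.06 without it. Commitment genes, 8 tested, had a median of 0.23 with and 0.22 without it. Ion channel genes had 0.18 over 23 tested genes and 0.04 without it, receptor genes 0.03 and 0.00, and synaptic adhesion genes -0.05 and 0.04. The 3 tested planar cell polarity genes, Prickle2, Prickle1 and Daam1, had a median of 0.28, and 0.02 without it. Prickle1 averaged 0.725, 0.351 and 0.682 in wild type and 2.8, 0.383 and 0.6 in heterozygotes, with its high value in heterozygous replicate 1. Lists of other cell types had medians away from 0 in the same comparison. The 4 tested pan-neuronal genes were all higher in heterozygotes, with a median of 0.68 (0.07 without that library). The 3 tested glutamatergic neuron genes had a median of 0.63 (0.03), and the 4 tested astrocyte genes -0.21 (0.07). Of 8 tested medium spiny neuron genes 7 were lower, with a median of -0.40, and -0.20 without that library. The rule caps Rgs9 plus Pde10a in each nucleus, so the values of this last list were limited by the selection. The part of these other cell types in the OPC values was not tested. No member of any list passed adjustment.

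The genotype difference in OPCs was then set against that in the other glial classes, library by library. Against mature oligodendrocytes, 0 of 2103 genes (0.00%) differed at a limma adjusted p under 0.05, with 55 at an unadjusted p under 0.05 (2.62%). Against committed precursors this was 0 of 1709, with 51 (2.98%), and against astrocytes 0 of 2091, with 56 (2.68%). Without heterozygous replicate 1, 0 genes passed in each of the 3 comparisons, with 66 (2.72%), 75 (3.83%) and 80 (3.32%) at an unadjusted p under 0.05. The genes of smallest p were Gm10125 (-1.43), Gatad2b (0.93) and Dlc1 (1.15) against mature oligodendrocytes, Rpl36 (1.44), Ndrg4 (1.71) and Dyrk1a (1.38) against committed precursors, and Bcl11b (-0.82), Galnt17 (0.84) and Macrod2os1 (1.01) against astrocytes. Without heterozygous replicate 1 these were, in the same order, -1.43, 0.71 and 0.91, then 1.18, 1.50 and 1.22, and then -0.78, 0.76 and 0.70. Some of these lay mainly in the other class: Rpl36 differed between genotypes by 0.37 in OPCs and -1.07 in committed precursors, and Macrod2os1 by 0.12 in OPCs and -0.89 in astrocytes. Ndrg4 (0.95 and -0.75) and Dyrk1a (0.72 and -0.66) differed in opposite directions in OPCs and committed precursors. Gatad2b averaged 1.13, 1.26 and 1.08 in wild-type and 1.08, 1.11 and 1.21 in heterozygous mature oligodendrocytes. None of these genes was shown to respond differently in OPCs.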

How the data were processed

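Per the labels' protocols, nuclei from 6 frozen striata were sequenced with 10x Genomics 3′ chemistry; the submitters' processing notes name Cell Ranger, Seurat 4.1, mm10 and GRCm38. The authors deposited 1 table of 24841 genes and 48834 nuclei, whose values, as deposited by the authors, were treated as a score: depth-corrected UMI values rounded to whole numbers, read from the values themselves (the total per nucleus had a coefficient of variation of 10.7%). Doublets were not called. Some genes are not reported here. Gene means per library and class were compared on log2(mean + 0.01) with limma 3.58.1 (R 4.3.3, trended empirical Bayes) for genes with a mean of at least 0.02 and, on average over libraries, a summed value of at least 30. Shares were compared with exact permutation tests (Python 3.11.15, numpy 2.4.6), and the exact binomial intervals came from scipy 1.17.1. Code was tested on simulated data. Named genes were, by rule, Celsr3, the genes of the OPC rule, leading or nominal genes of each comparison, the leading members of each list, and the leading genes by class ratio and by variation. The OPC rule, the lists and the tests were chosen with earlier results of these data known. Gene positions come from the GENCODE GRCm38 annotation.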

Additional observations from a re-analysis of the deposited data

How the results depend on the processing

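The genotype fit called 0 genes under 18 of the 19 alternatives run, and without the filter on low values it called 6 of 18777 (Ntng1, Olfm3, Zfp804b, 4930445B16Rik, Rps23 and Ttr). Ntng1, 4930445B16Rik, Rps23 and Ttr had also met the filter, where none of them passed. Against 62 genes at an unadjusted p under 0.05, there were 824 without the filter, 28 under the stricter rule, 21 in nuclei with at most 3000 genes, 95 with array weights, and between 35 and 101 on leaving out 1 library each (the lowest without wild-type replicate 1, the highest without heterozygous replicate 3). The differences between classes called 0 under each alternative run. Of 34 gene differences followed singly, none was past the threshold at first or under the alternatives run. Of 528 single-gene values, 527 kept their direction, and Kcnh5 turned to -1.49 in nuclei with at most 3000 genes. By over 1.5 times 38 moved: 12 of 22 in nuclei with at most 3000 genes, 7 of 18 under the stricter rule (4932443L11Rik to -3.15), 5 of 25 with array weights, 6 of 34 without heterozygous replicate 1, 4 of 25 weighted by nuclei, and 4 under 3 other alternatives, among them Grm8 at 0.79 without wild-type replicate 1. The difference in the OPC share ran from -0.370 to 0.187 percentage points on leaving out 1 library each, and that in the lineage share from -1.27 to 1.25, with 0.192 under the looser rule. Both turned without wild-type replicate 2 and without heterozygous replicate 1. With a limit of 5 cell cycle genes the difference was -4.26, and -2.95 also leaving out heterozygous replicate 1. The 5 list members at an unadjusted p under 0.05 became 39 without the filter, 3 with array weights, 2 with size factors and with the stricter or looser rule, 1 with matched nuclei or with at most 3000 genes, and 1 to 12 on leaving out 1 library each. Of the 10 most variable genes, 3 to 9 remained on such omissions. The count of genes over 2-fold above the other classes ran from 68, without heterozygous replicate 1, to 246. Replicate numbers did not pair the libraries (correlations of -0.140, 0.0587 and -0.295): with the number as a block, 0 genes were called in OPCs, with 56 at an unadjusted p under 0.05. Matching on genes per nucleus left 4 nuclei per library and 86 genes. In 1 library there were 10 OPC nuclei, and the depth per nucleus is unknown.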
